A study of Mus musculus with 41 samples.

Results

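Pou5f1, which encodes OCT4, and 8 further genes known as regulators of early germ cells (Lin28a, Lin28b, Nanos2, Nanos3, Utf1, Tfap2c, Prdm1 and Prdm14) were followed through 3 assays of mouse male germ cells. The genes were chosen by name, with earlier results of these data known. Their 9 rows were taken from gene tables of 55536 rows each, with identifiers matched to symbols through the GENCODE M21 annotation, and their names were looked up among 5147 RHOX10 peaks.

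OCT4 is a POU-family transcription factor that maintains pluripotency and is kept on in primordial germ cells and early spermatogonia, which is why Oct4 reporters are used to sort germ cells. PRDM1, PRDM14 and TFAP2C are the transcriptional regulators that set up primordial germ cells from the epiblast. LIN28A and LIN28B are RNA-binding proteins that block the maturation of let-7 microRNAs, and NANOS2 and NANOS3 are RNA-binding proteins that repress translation and protect germ cells, NANOS2 in male fetal germ cells and spermatogonial stem cells in particular. UTF1 is a chromatin-associated factor of pluripotent cells and early spermatogonia.

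The study concerned RHOX10, a homeobox transcription factor encoded on the X chromosome, in C57BL/6 testis germ cells. For RNA-seq, mice carrying an OCT4-eGFP transgene, in which Oct4 regulatory sequence drives the green reporter, were either wild-type or Rhox10-null, and eGFP+ cells were sorted, with testes of 3 animals pooled in each of 4 libraries per genotype. Both genotypes carry the reporter, and the animals' age is not given in the sources used here. For iSLAM-seq, a 3′-end sequencing assay on metabolically labelled RNA, germline stem cells grown from neonatal testes carried an shRNA against endogenous Rhox10 in all groups. They also carried either a Rhox10-ERT2-mCherry fusion, made active by 4-hydroxytamoxifen, or the ERT2-mCherry vector without Rhox10 (empty vector), with 2 libraries at each of 0, 0.5, 1, 2, 4 and 8 h. For CUT&Tag, which maps where a protein sits on DNA, such knocked-down cells expressed HA-tagged RHOX10, and 1 merged peak list of 3 RHOX10 libraries was used. The RNA-seq replicates are pools of separate animals. The iSLAM-seq replicates are named biological replicates, but no label says whether they were separate cell lines.

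RNA-seq libraries held 6602089 to 8278887 counts, of which a single gene, Gm42418, took 58.0% to 59.4% in wild-type and 51.0% to 52.7% in the libraries labelled null. Outside the 8 genes above 1% of a library, 1379870 to 2128523 counts remained, and this is the depth behind the RNA-seq values. iSLAM-seq libraries held 9419615 to 12645845 counts. Rhox10 itself had 3, 10, 5 and 3 counts in the wild-type RNA-seq libraries and 11, 9, 4 and 6 in those labelled null, so its level did not separate the genotypes (exact two-sided permutation test on CPM, that is counts scaled to a common total, taken of library totals, p = 0.286). The position of the deletion within the gene is not given in the sources used here. In iSLAM-seq, Rhox10 lay between 0.202 and 2.42 CPM in the empty-vector libraries and between 34.1 and 46.7 CPM in the Rhox10-ERT2 libraries, already at 0 h. The 2 empty-vector libraries of 0.5 h differed far more from each other than any other pair (chi-square per degree of freedom over genes 26.6, against 2.61 to 4.57 in the other iSLAM-seq pairs).

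Of the 9 genes, Prdm1 alone was named in the RHOX10 peak annotation. Its peak spans chr10:44458413-44459018 (mm10), 606 bases in which 2 of the gene's annotated transcripts start, and carries the authors' score of 89.0, below the median of 127.5 over all peaks (34.8th percentile). The authors placed the peak centre 33 bases from the start site and annotated it as promoter. The promoter window of Prdm1 from RefSeq (GRCm38.p6), 250 bases before to 50 after a start, lies wholly inside this peak. It is shown for that reason, though it is only part of the sequence that the peak covers. The windows of Nanos2 and Nanos3 are shown beside it because these 2 genes varied together over the iSLAM-seq libraries, as described below. The RefSeq start of Nanos2 used here lies downstream of the start of its GENCODE M21 gene model at 18987400. The Nanos3 window lies inside its GENCODE M21 gene model, which runs on the minus strand from 84185217 to 84173731 and has 3 transcripts. Capitals mark a match of the AP-2 motif, the site bound by TFAP2C and its relatives.

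Prdm1, chr10:44458699-44458998, minus strand: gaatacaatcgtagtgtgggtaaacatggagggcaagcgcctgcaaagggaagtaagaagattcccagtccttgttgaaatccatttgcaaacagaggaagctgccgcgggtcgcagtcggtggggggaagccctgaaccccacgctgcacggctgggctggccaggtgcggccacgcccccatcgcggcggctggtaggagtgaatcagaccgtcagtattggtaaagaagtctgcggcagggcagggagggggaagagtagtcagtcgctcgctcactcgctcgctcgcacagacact
Nanos2, chr7:18987274-18987573, plus strand: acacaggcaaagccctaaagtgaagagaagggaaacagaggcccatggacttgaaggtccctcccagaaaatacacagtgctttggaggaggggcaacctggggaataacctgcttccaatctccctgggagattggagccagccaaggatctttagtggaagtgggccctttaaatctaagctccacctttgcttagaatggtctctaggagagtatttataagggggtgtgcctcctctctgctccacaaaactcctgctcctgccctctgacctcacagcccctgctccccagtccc
Nanos3, chr8:84176503-84176802, minus strand: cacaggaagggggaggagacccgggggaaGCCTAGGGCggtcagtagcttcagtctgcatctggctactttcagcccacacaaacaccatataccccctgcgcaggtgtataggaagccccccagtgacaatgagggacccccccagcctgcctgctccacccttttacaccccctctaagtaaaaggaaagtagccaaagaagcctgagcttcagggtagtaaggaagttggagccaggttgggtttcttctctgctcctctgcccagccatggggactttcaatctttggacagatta

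These patterns of letters were searched on both strands: TAATTA, the core of many homeodomain sites, ATGCAAAT, the octamer bound by OCT4, and GCCNNNGGC for AP-2. Of the 9 genes, 7 have an entry in the RefSeq promoter table. None of these windows held TAATTA (5.3% of all 32851 promoters in the table do) or the octamer (1.7% do). The AP-2 letters occurred in the windows of 3 genes, Pou5f1, Lin28a and Nanos3, against 16.6% of all promoters. The 300 bases around the centre of the Prdm1 peak, which extend beyond the printed window, held 1 AP-2 match, 0 TAATTA and 0 octamers. Over 5143 such peak windows, 29.4% held the AP-2 letters, 1.0% TAATTA and 1.0% the octamer. The Nanos2 window contained no CpG dinucleotide, which places it at the 5.4th percentile of all promoters by observed over expected CpG, and Nanos3 lay at the 18.1th percentile with a ratio of 0.13. Prdm1 lay at the 76.4th percentile with a ratio of 0.77, so the one promoter with a peak has the highest such ratio of the printed windows. A letter match is a description of the sequence only.

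The other 8 genes had no peak within 3 kb of any annotated start. The nearest was 3.7 kb from the Nanos2 start and is annotated by the authors to the promoter of Mypop (score 406). For the remaining genes the nearest peak lay 41.3 kb (Lin28a) to 300 kb (Prdm14) away, at the promoter of another gene in all but 2 cases, Pou5f1 (an exon of H2-Q4) and Prdm14 (intergenic). Over the whole list, 4342 gene names had a peak within 3 kb, where the gene tables hold 55536 rows. Whether the 9 genes have fewer or more peaks than other genes was not tested. Counting peaks that the authors' annotation assigns to the gene, 1 of the 9 genes had one within 1, 3 or 10 kb (the peak near Nanos2 lies within 10 kb of its start but is assigned to Mypop), and 0 did when only peaks at or above the median score were kept. The peaks come from 1 merged list, so no error can be given for a single peak.

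In the sorted cells, Lin28a was the most abundant of the 9 genes per kilobase of exon, and it was lower in the libraries labelled null. Between-gene levels are given here as CPM per kilobase, with library sizes adjusted by TMM, a scaling that assumes that most genes do not differ. In wild-type cells Lin28a stood at 4.04 ± 0.661 CPM per kb (SD, n = 4), Pou5f1 at 2.04 ± 0.414 and Utf1 at 1.34 ± 0.243. Lin28a lay above Pou5f1 in all wild-type libraries, and the ranges of Pou5f1 and Utf1 did not overlap either. Below them came Nanos3 (0.865 ± 0.115), Lin28b (0.627 ± 0.101), Tfap2c (0.323 ± 0.166) and Prdm1 (0.282 ± 0.0812), of which Tfap2c and Prdm1 overlapped, as did the lowest Utf1 and the highest Nanos3 library at 0.995 and 0.996. In the libraries labelled null the order at the top was different: Pou5f1 (1.94 ± 0.38) and Lin28a (1.67 ± 0.212) overlapped. Averaged over both genotypes, Lin28a lay at the 67.3th percentile of the 13538 genes tested and Pou5f1 at the 53.6th, so the gene behind the sorting reporter was near the middle of the expressed genes in the sorted cells.

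Pou5f1 had 25, 32, 34 and 29 counts in the wild-type RNA-seq libraries and 29, 37, 42 and 32 in those labelled null. The groups overlapped, at 4.59 ± 0.931 and 4.36 ± 0.854 CPM (SD, n = 4 each). The log2 fold change, null minus wild-type as in all RNA-seq comparisons, was -0.07 (SE 0.185, edgeR quasi-likelihood test with Benjamini-Hochberg adjustment, adjusted p = 0.783). An antisense gene, Gm19553, overlaps Pou5f1, and since the strand setting of the counting is not stated, reads of the pair cannot be told apart. The same holds for Nanos2 with Gm45058 and for Lin28a with Gm13061, and on the same strand for Nanos3 with the microRNA genes Mir181c and Mir181d.

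Of the 5 genes with enough counts to be tested in RNA-seq, 2 passed the threshold of an adjusted p of 0.05, both lower in the libraries labelled null, where 37.5% of all genes tested passed it in either direction and 18.9% passed it as lower. The 2 were the LIN28 pair. Lin28a had 132, 105, 86 and 103 counts in wild-type and 60, 55, 61 and 41 in null libraries, with no overlap, at 16.1 ± 2.64 against 6.67 ± 0.847 CPM (SD, n = 4 each). Its log2 fold change was -1.27 (SE 0.122, edgeR adjusted p = 2.42e-11). Lin28b had 42, 32, 39 and 36 counts in wild-type and 28, 24, 25 and 27 in null libraries, again with no overlap in CPM (5.68 ± 0.913 against 3.22 ± 0.286). It was lower by a log2 fold change of -0.81 (SE 0.178, edgeR adjusted p = 0.000342). The median over the 5 tested genes was -0.07, against 0.00 over all genes tested. Non-overlap of 4 with 4 libraries is a description only, here and below, since its share over all genes was not computed.

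Utf1 and Prdm1 did not pass the test. Utf1 had 11, 12, 11 and 9 counts in wild-type and 16, 13, 15 and 10 in null libraries, a log2 fold change of 0.03 (SE 0.283, edgeR adjusted p = 0.944). Prdm1 had 14, 7, 8 and 13 counts in wild-type and 19, 22, 17 and 16 in null libraries, a log2 fold change of 0.52 (SE 0.273, edgeR adjusted p = 0.132). On the TMM-scaled CPM the Prdm1 groups overlapped slightly, the highest wild-type library (2.11 CPM) lying within the null range of 2.04 to 2.91. As CPM of library totals the Prdm1 groups did not overlap, at 1.39 ± 0.387 in wild-type against 2.58 ± 0.493 in null libraries. The exact two-sided permutation p on library totals was 0.0286 for Prdm1, the smallest possible, and 0.0857 for Utf1, neither adjusted. Whether Prdm1 separated the genotypes thus depended on the scaling.

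The remaining genes were under the filter on low counts and are given by their counts. Nanos3 had 5, 6, 5 and 5 counts in wild-type and 4, 3, 3 and 3 in null libraries, with no overlap as CPM of library totals (0.706 ± 0.095 against 0.448 ± 0.0333, exact two-sided permutation p = 0.0286, the smallest that 4 against 4 libraries can give, not adjusted). Tfap2c had 3, 9, 6 and 14 counts in wild-type and 14, 8, 6 and 8 in null libraries, which overlapped (exact permutation p = 0.714). Nanos2 had at most 1 count in any RNA-seq library, 3 in all over wild-type and 1 over null. Prdm14 had 1, 1, 1 and 0 counts in wild-type and 2, 0, 2 and 4 in null libraries. At this depth 3 counts correspond to 0.328 to 0.509 CPM, so differences in Nanos2 were not detectable, and Prdm14 had more than 3 counts in 1 library only.

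**Figure D1:**
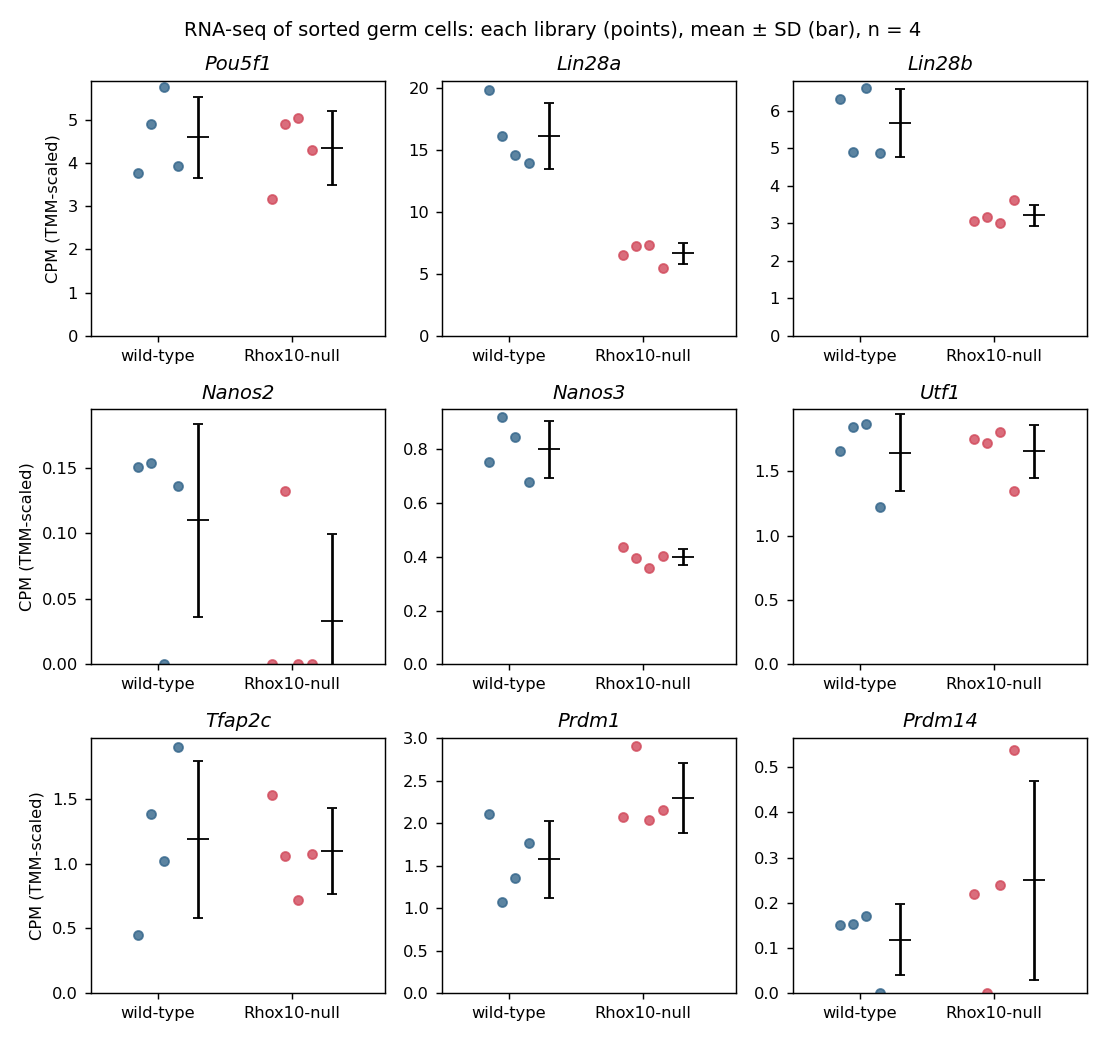
CPM of each of the 9 genes in every RNA-seq library (points; wild-type left, Rhox10-null right; vertical axes start at 0 and differ between panels), with the mean and SD of 4 libraries beside them. On this TMM-scaled axis Lin28a (13.97 to 19.85 CPM in wild-type, 5.517 to 7.329 in null), Lin28b and Nanos3 show no overlap between genotypes. Pou5f1, Utf1, Tfap2c and Prdm1 overlap. The share of all genes without overlap was not computed.

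The lower LIN28 levels stood beside lower levels of germ cell genes in general. The sorted cells, labelled as purified germ cells, expressed the germ cell genes Dazl and Ddx4 (77.7 ± 4.3 and 38.8 ± 0.943 CPM in wild-type, SD, n = 4), and all 9 Sertoli markers searched were detected too. A list of 22 genes of germ cells such as Ddx4 and Dazl summed to 396 to 426 CPM in wild-type and 223 to 242 CPM in null libraries, with 17 of 21 tested genes lower and 0 higher. The summed levels of markers of other testis cells moved the other way, where 18.6% of all genes tested were called higher and 18.9% lower. Peritubular and stromal genes summed to 334 to 357 against 535 to 576 CPM (7 of 7 higher). Sertoli genes summed to 420 to 440 against 480 to 497 CPM, but with 2 higher and 1 lower of 8 and a median log2 fold change of 0.04. Among them Amh rose from a mean of 139 to 187 CPM and Cldn11 fell (-0.73). Erythroid genes, with 7 of 8 detected in wild-type, summed to 1.36 to 4.07 against 78.9 to 88.1 CPM (6 of 6 tested higher). Leydig (4 of 5), endothelial (3 of 4) and macrophage (2 of 6) genes were also higher where they passed. In bulk RNA, fewer germ cells and less RNA of a gene per cell cannot be told apart.

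Scaling each library to the germ cell list in place of TMM moved every RNA-seq log2 fold change up by 0.662. On that scale Lin28a was still lower (-0.61, SE 0.127, edgeR adjusted p = 3.1e-05), and Lin28b was not called (-0.15, SE 0.184, adjusted p = 0.445). Pou5f1 turned from -0.07 to 0.59 (adjusted p = 0.00426), Utf1 to 0.69 (adjusted p = 0.0265) and Prdm1 to 1.18 (adjusted p = 0.000131), all higher in the libraries labelled null. So of the 5 tested genes Lin28a alone kept its direction and its call under both scalings. Under TMM, the spermatogonial stem cell list had 13 lower and 1 higher of 15 tested genes, where 18.9% of all genes were lower. Its median log2 fold change was -0.932, against -0.718 for the germ cell list used in the scaling. Whether the remaining difference of Lin28a goes with that of stem cell genes was not tested. Scaling to plain library totals, which shifts values by 0.344, kept the calls of Lin28a (-0.92) and Lin28b (-0.47) and added Prdm1 (0.86, adjusted p = 0.00638). Under the germ cell scaling 10787 genes were called higher and 147 lower, against 2518 and 2553 under TMM.

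**Figure D2:**
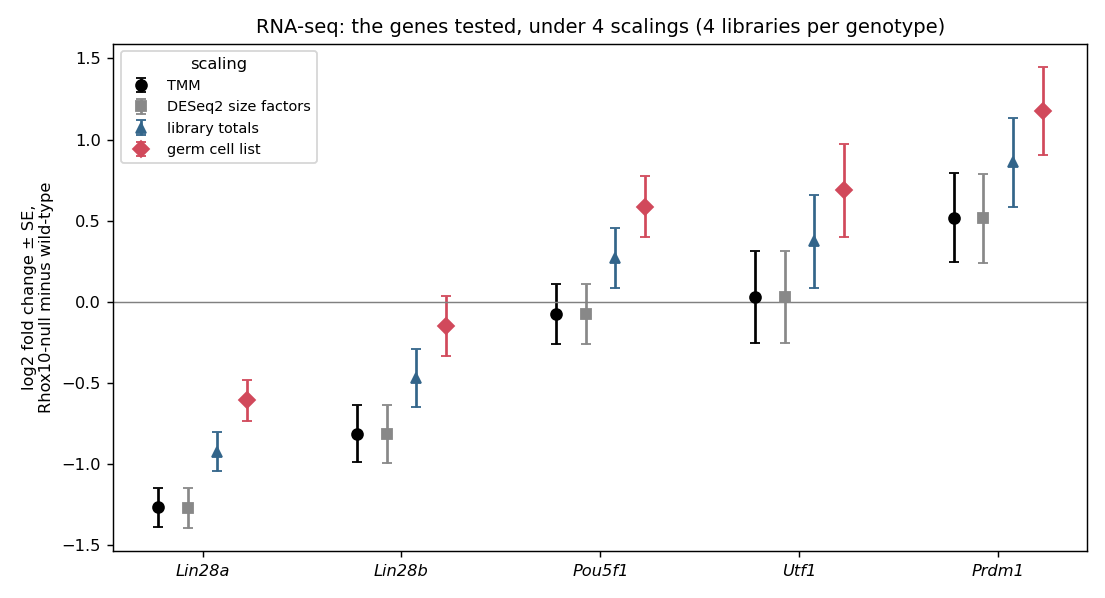
Log2 fold change (Rhox10-null minus wild-type, vertical axis) with its SE for the 5 tested genes under 4 ways of scaling the same 8 libraries (symbols). Lin28a lies below 0 under all 4, while with scaling to the germ cell list Lin28b lies near 0 and Pou5f1, Utf1 and Prdm1 lie above it.

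Among 24 other genes of the LIN28 and let-7 pathway, all tested, 7 were lower and 4 higher in the libraries labelled null, against 18.9% lower and 18.6% higher over all genes tested (median log2 fold change -0.04, 0.00 over all genes). Trim71, a let-7 target and germ cell RNA-binding protein, was lower (-1.06, SE 0.065, edgeR adjusted p = 1.94e-17), as were Drosha (-0.73), the nuclease that cuts primary microRNAs, and Igf2bp1 (-0.74), an RNA-binding protein and let-7 target. Ago2, the slicing Argonaute, was higher (0.48, SE 0.0623, edgeR adjusted p = 4.39e-08). Of 19 other primordial germ cell and germ cell RNA regulators, 17 were tested, 8 were lower and 2 higher, among them Dazl (-1.08), Ddx4 (-0.91), Sall4 (-0.75) and Kit (-0.88). Of 25 other core pluripotency genes, 15 were tested, with 3 lower and 2 higher, where 37.5% of all genes were called in either direction. Klf4 (0.40) and Klf2 (0.75) were the higher ones, and Chd4 (-0.19) and Nr0b1 (-0.56) were among the lower ones. These directions are those under TMM.

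In cultured germline stem cells the 9 genes had another order of abundance. 3′-end counting gives about 1 fragment per transcript, so CPM were compared without dividing by length. Over all 24 iSLAM-seq libraries Lin28a averaged 227 CPM (96.0th percentile of 20642 genes tested), Tfap2c 41.0, Lin28b 36.7, Nanos3 28.4, Prdm1 25.3, Utf1 12.7 and Nanos2 7.30 CPM. Pou5f1 averaged 0.611 CPM (9.70th percentile), with 1 to 19 counts in a library, so the gene that marks the sorted cells was close to the limit of detection in the cultured ones. Prdm14 had 0 counts in all 24 libraries, which allows up to 0.241 to 0.311 CPM per library. It is not stated whether these counts hold all reads or only those with labelling conversions, so a change in level cannot be split into synthesis and decay.

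Averaged over 0.5 to 8 h, 4 of the 8 tested genes were lower with Rhox10-ERT2 than with the empty vector and none was higher, where 37.1% of all genes tested passed in either direction and 18.4% passed as lower. The 4 were Nanos2 (log2 fold change -0.95, SE 0.135, edgeR adjusted p = 4.74e-06), Nanos3 (-0.56, SE 0.0781, adjusted p = 3.64e-06), Tfap2c (-0.45, SE 0.0725, adjusted p = 2.49e-05) and Lin28b (-0.27, SE 0.058, adjusted p = 0.00072). Lin28a (0.01, SE 0.037), Prdm1 (-0.05, SE 0.0784), Utf1 (0.08, SE 0.0961) and Pou5f1 (-0.10, SE 0.466) did not pass. The median over the 8 genes was -0.19, against 0.00 over all genes tested. These 4 calls held in every alternative setting and with any single library left out.

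The same vectors also differed at other gene groups. In the averaged comparison, 15 of 17 tested spermatogonial stem cell genes were lower and 1 higher with Rhox10-ERT2. The germ cell list had 14 lower and 1 higher of 22. Over all genes tested, 18.4% were lower and 18.7% higher. Already at 0 h, 10 of the 17 were lower and 1 higher (median log2 fold change -0.388, against -0.396 averaged). Of the 22 genes, 7 were lower and 0 higher at 0 h, where 4.32% of all genes tested were lower and 6.56% higher. The change from 0 h passed for 2 of the 17 genes and 0 of the 22, and for 2.39% of all genes tested. Germ cell sums over all times, 0 h included, were 2500 to 2820 CPM against 2620 to 3300 with the empty vector. Stromal genes were detected in both, at 1070 to 1800 against 893 to 1460 CPM over the same times. Their part in the lower levels of the 4 genes was not tested.

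Nanos2 was lower with Rhox10-ERT2 at every time point without overlap between the pairs. Non-overlap of 2 with 2 libraries is a description only, here and below, since its share over all genes was not computed. At 0 h the empty-vector libraries had 8.96 and 5.78 CPM and the Rhox10-ERT2 libraries 3.09 and 2.23. The values at 0.5 h were 6.86 and 9.43 against 3.09 and 2.68, followed by 10.2 and 7.95 against 5.91 and 5.18 after 1 h. The pairs thus stood apart already at 0 h. The libraries of 2 h stood at 7.64 and 10.8 against 7.63 and 5.20, those of 4 h at 13.1 and 7.89 against 7.72 and 6.23. The last pairs, of 8 h, stood at 12.5 and 15.2 against 4.77 and 5.32. The pairs came close at 2 and 4 h and were further apart at 8 h. The variation of Nanos2 over time with the empty vector did not pass (F-test, edgeR adjusted p = 0.274).

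In tests at single times the log2 fold change of Nanos2 was -1.46 at 0 h (SE 0.329, edgeR adjusted p = 0.00483), where it was the only one of the 8 tested genes to pass and 10.9% of all genes did. It was -1.49 at 0.5 h (adjusted p = 0.00253) and -1.45 at 8 h (adjusted p = 0.00139), and it did not pass at 1, 2 and 4 h (-0.71, -0.52 and -0.59). The call at 0 h was lost without the first empty-vector library of 0 h (adjusted p = 0.0953) or the second Rhox10-ERT2 library of 0 h (adjusted p = 0.0765). The change of the difference from 0 h, tested over the 5 later times together, did not pass (F-test, edgeR adjusted p = 0.463). In the Rhox10-ERT2 libraries alone Nanos2 varied with time (adjusted p = 0.0146), a call that was lost without the second Rhox10-ERT2 library of 0 h or of 0.5 h (adjusted p = 0.0627 and 0.0537).

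Nanos3 climbed with time in the empty-vector cells and took a different course with Rhox10-ERT2. At 0 h the empty-vector libraries had 21.8 and 17.4 CPM and the Rhox10-ERT2 libraries 16.1 and 14.5. The values at 0.5 h were 21.4 and 36.3 against 16.9 and 16.0, followed by 31.4 and 27.4 against 16.0 and 17.9 after 1 h. With Rhox10-ERT2 all libraries up to 1 h thus lay within 14.5 to 17.9 CPM. The libraries of 2 h stood at 33.5 and 30.8 against 31.6 and 31.5, those of 4 h at 41.2 and 37.2 against 39.2 and 37.3. The last pairs, of 8 h, stood at 49.8 and 51.7 against 22.7 and 22.9. The pairs met at 2 and 4 h, where they overlapped, and at 8 h the Rhox10-ERT2 level was less than the lower of the empty-vector libraries at 1 h.

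The differences of Nanos3 at single times were -0.81 at 0.5 h (SE 0.18, edgeR adjusted p = 0.00328), -0.80 at 1 h (SE 0.178, adjusted p = 0.00459) and -1.15 at 8 h (SE 0.174, adjusted p = 5.08e-05), against -0.02 at 2 h and -0.03 at 4 h. At 0 h the difference was -0.36 (adjusted p = 0.254). The call at 0.5 h was lost without the second empty-vector library (adjusted p = 0.218), one of the pair that stands apart. The call at 1 h was lost without the first empty-vector (adjusted p = 0.0717) or the first Rhox10-ERT2 library (adjusted p = 0.0732) of that time, and the call at 8 h held without any single library. At 0.5 h Nanos2 and Nanos3 were the 2 genes called of 8 (14.5% of all genes), and at 1 h Nanos3 was the only one (9.91% of all genes).

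**Figure D3:**
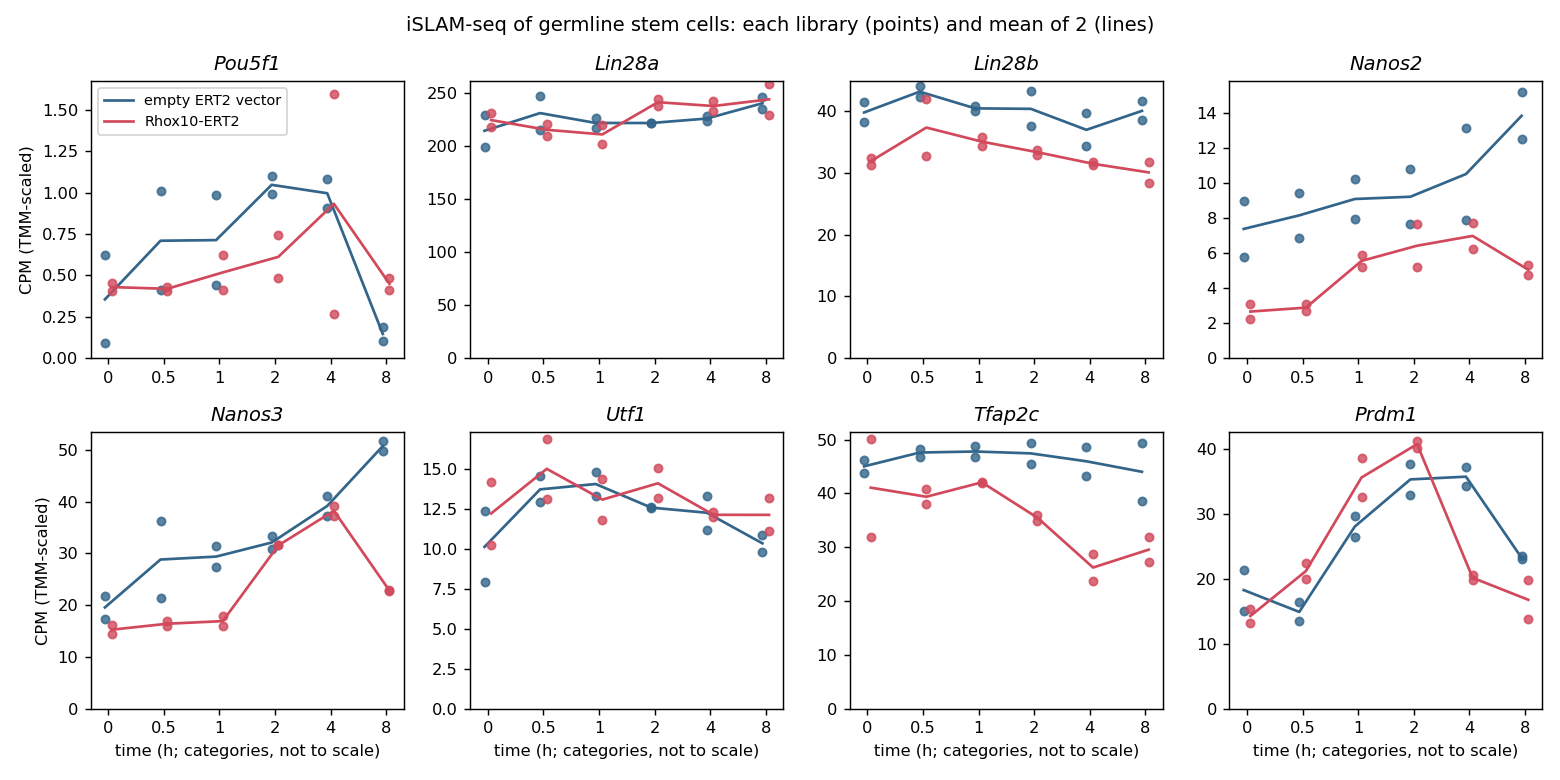
CPM of the 8 detected genes in iSLAM-seq at 0, 0.5, 1, 2, 4 and 8 h (horizontal axis in equal steps), with points for single libraries and lines through the mean of 2, in empty-vector and Rhox10-ERT2 cells. Nanos3 reaches 49.83 and 51.67 CPM at 8 h with the empty vector against 22.71 and 22.93 with Rhox10-ERT2, and Prdm1 rises and falls in both.

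Prdm1 varied with time in both kinds of cells, with its highest mean at 4 h with the empty vector (35.7 CPM) and at 2 h with Rhox10-ERT2 (40.7 CPM), along courses that differed between the vectors. The empty-vector pairs, in the order of the 6 times, had 15.1 with 21.4 CPM, 16.4 with 13.4, 29.6 with 26.4, 37.6 with 32.9, 37.1 with 34.2, and 23.4 with 23.0. The Rhox10-ERT2 pairs, in the same order, had 15.3 with 13.3 CPM, 19.97 with 22.4, 38.6 with 32.5, 40.2 with 41.2, 20.5 with 19.8, and 13.8 with 19.7. The Rhox10-ERT2 pair lay above the empty-vector pair at 0.5, 1 and 2 h and below it at 4 and 8 h, with no overlap. Of these differences only the one at 4 h passed the test, and at 0 h the pairs overlapped.

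At 4 h the Prdm1 difference was -0.82 (SE 0.174, edgeR adjusted p = 0.00225), a call that held without any single library. The differences of 0.51 at 0.5 h (adjusted p = 0.0675), 0.34 at 1 h (adjusted p = 0.24), 0.21 at 2 h (adjusted p = 0.54) and -0.47 at 8 h (adjusted p = 0.0839) did not pass. The one at 0.5 h passed when the first empty-vector library of 0 h or of 0.5 h was left out (adjusted p = 0.0499 and 0.0168), and the one at 8 h when either empty-vector library of 0.5 h or the second Rhox10-ERT2 library of 8 h was (adjusted p = 0.036, 0.048 and 0.0288).

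Prdm1 and Nanos3 were the 2 of 8 genes whose difference between the vectors changed from its value at 0 h, in a joint F-test over 5 times that 2.39% of all genes passed. For Prdm1 the adjusted p was 0.00699 (edgeR), and it stayed between 8.23e-06 and 0.0336 over all alternatives. For Nanos3 it was 0.0226, and it lay above 0.05 when any of 10 single libraries was left out, those being either library of 8 h with either vector, either Rhox10-ERT2 library of 2 or 4 h, and the second empty-vector library of 2 or 4 h (adjusted p of these fits 0.0503 to 0.0992). The same 2 genes varied with time in the empty-vector cells (Prdm1 adjusted p = 0.000124, Nanos3 0.000295), where 5.74% of all genes did. In the Rhox10-ERT2 cells 4 of 8 genes varied with time, Prdm1 (adjusted p = 2.13e-06), Nanos3 (9.54e-06), Nanos2 and Tfap2c, against 9.44% of all genes. These time tests share their 0 h libraries with the test of the changed difference.

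Tfap2c was lower with Rhox10-ERT2 at the late times, and its variation over time with the empty vector did not pass the test (edgeR adjusted p = 0.983). The empty-vector libraries lay between 38.6 and 49.4 CPM over all times (median 46.8, n = 12). The Rhox10-ERT2 pairs, in the order of the 6 times, had 32.0 with 50.2 CPM, 38.0 with 40.8, 41.9 with 42.2, 36.1 with 34.9, 28.7 with 23.8, and 31.8 with 27.3. The 0 h pair with Rhox10-ERT2 was the widest apart, and from 0.5 h on the pairs of the vectors did not overlap at any time.

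Tfap2c was called lower at 4 h (log2 fold change -0.81, SE 0.165, edgeR adjusted p = 0.0016) and at 8 h (-0.57, SE 0.165, adjusted p = 0.0176). The call at 8 h was lost without the second empty-vector or the second Rhox10-ERT2 library of that time (adjusted p = 0.238 and 0.171). At 4 h Tfap2c and Prdm1 were the 2 genes called of 8, where 12.2% of all genes were. At 2 h none of the 8 genes was called by edgeR, and none of the 7 for which DESeq2 gave an adjusted p (all but Pou5f1) was called by DESeq2, where 10% of all genes were by edgeR. Of the 8, 2 had an unadjusted p under 0.05 in edgeR's quasi-likelihood test, Tfap2c (0.0164) and Lin28b (0.0431). Tfap2c at 2 h passed in 4 of the fits that leave out 1 library, without either empty-vector library of 0.5 h or either Rhox10-ERT2 library of 0 h (adjusted p 0.0261 to 0.0477). The change of its difference from 0 h did not pass (adjusted p = 0.448), and its variation with time in Rhox10-ERT2 cells (adjusted p = 0.025) was lost without either Rhox10-ERT2 library of 1 h, or the second of 4 or 8 h (adjusted p 0.0552 to 0.157).

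Lin28b was a little lower with Rhox10-ERT2 at all times, and Lin28a did not differ by the test. The empty-vector libraries had 34.3 to 44.1 CPM of Lin28b (median 40.5, n = 12) and the Rhox10-ERT2 libraries 28.4 to 41.9 (median 32.6, n = 12). The pairs did not overlap at any of the 6 times. The difference was -0.32 at 0 h (SE 0.13, edgeR adjusted p = 0.131) and -0.41 at 8 h (SE 0.131, adjusted p = 0.0326), and the test of its change from 0 h gave an adjusted p of 0.959. The call at 8 h was lost on library totals (adjusted p = 0.0708), with no filter on low counts (adjusted p = 0.126) and without any one of the 4 libraries of 8 h (adjusted p 0.0685 to 0.221). Lin28a lay between 199 and 247 CPM with the empty vector (median 225) and between 202 and 258 CPM with Rhox10-ERT2 (median 230), and its largest difference at a single time was 0.12 at 2 h (SE 0.0826). The Rhox10-ERT2 pair of Lin28a lay above the empty-vector pair at 2 h and 4 h with no overlap, and the pairs overlapped at the other times. At 0.5 h its difference of -0.10 became -0.20 and passed without the first empty-vector library of that time (adjusted p = 0.0384), and its variation with time in Rhox10-ERT2 cells (adjusted p = 0.291) passed without either empty-vector library of 0.5 h (adjusted p = 0.0159 and 0.0137). At 8 h, Lin28b, Nanos2, Nanos3 and Tfap2c made 4 called of 8, where 16.8% of all genes were called.

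Utf1 and Pou5f1 did not pass the test at any time or averaged over 0.5 to 8 h. Utf1 lay between 7.91 and 14.8 CPM with the empty vector (median 12.58, n = 12) and between 10.3 and 16.9 with Rhox10-ERT2 (median 13.1, n = 12). Pou5f1 lay between 0.0889 and 1.10 CPM with the empty vector (median 0.765) and between 0.266 and 1.60 with Rhox10-ERT2 (median 0.443). The pairs did not overlap at 2 and 8 h for either gene, Rhox10-ERT2 being above for Utf1 at both times, and below at 2 h and above at 8 h for Pou5f1, and they overlapped at the other times. At 8 h the Pou5f1 counts were 2 and 1 against 4 and 5, all near the floor of 3 counts, and the SE of the Pou5f1 log2 fold change at that time was 1.12.

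**Figure D4:**
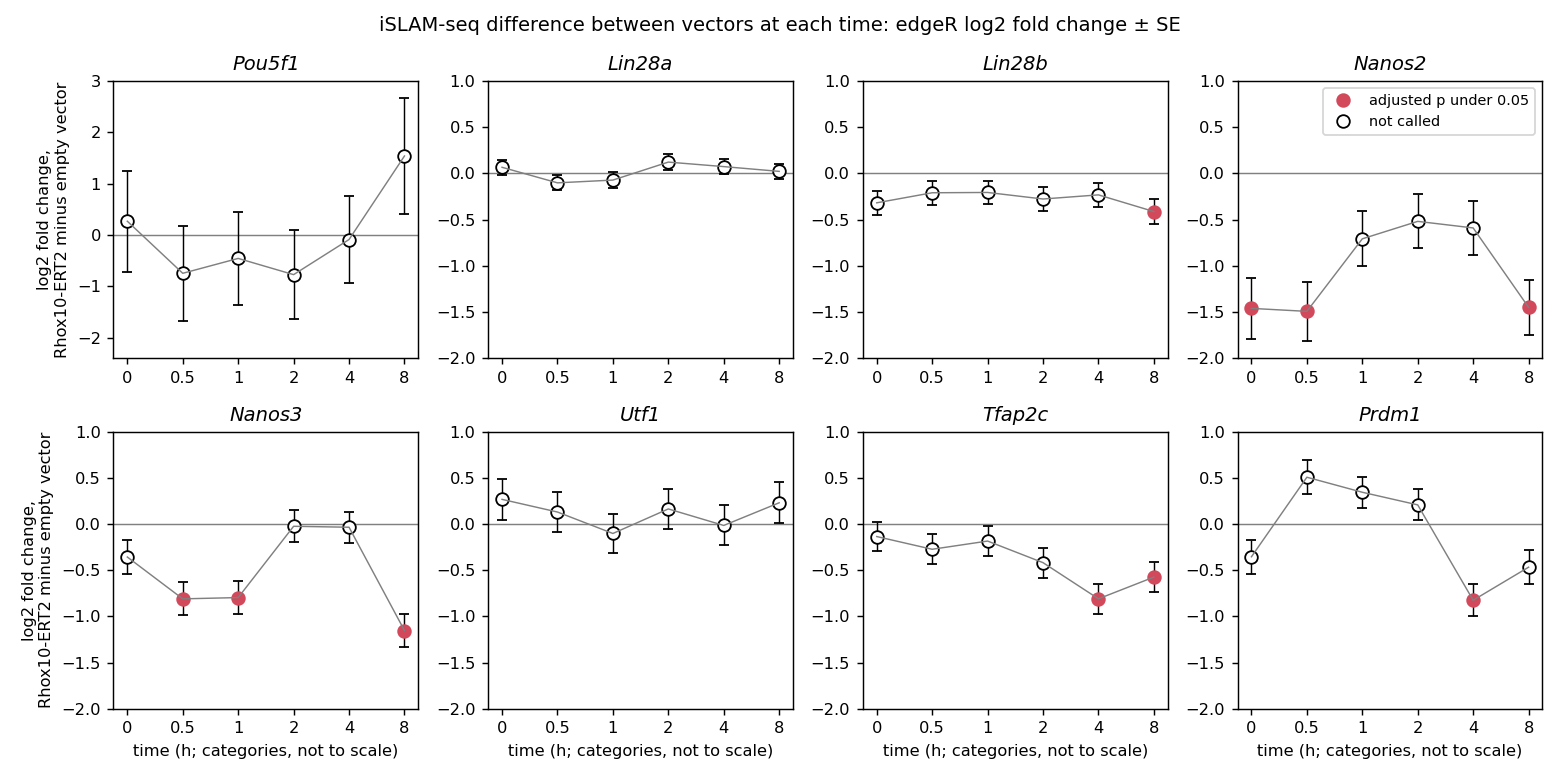
Log2 fold change between the vectors (Rhox10-ERT2 minus empty vector, vertical axis, with SE) for 8 genes at each of 6 times; filled points passed an adjusted p of 0.05. Nanos2 is lowest at 0, 0.5 and 8 h (-1.46, -1.49 and -1.45), Nanos3 at 8 h (-1.15), and Prdm1 crosses from above 0 to below it between 2 and 4 h.

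The LIN28 and let-7 list was also examined in the averaged iSLAM-seq comparison, where 5 of 24 genes were higher and 10 lower with Rhox10-ERT2, against 18.7% higher and 18.4% lower over all genes tested (median -0.11, against 0.00 over all genes). Ago2 (0.76, SE 0.0413, edgeR adjusted p = 9.96e-13) and Hmga2 (0.62), a chromatin protein and let-7 target, were higher, and Igf2bp1 (-0.29) and Drosha (-0.46) were lower. Of 19 other primordial germ cell and germ cell RNA regulators 6 were higher and 6 lower, among them Ifitm3 (0.74), a surface marker of primordial germ cells, and Sall4 (-0.44), Ddx4 (-0.49) and Cnot3 (-0.43), a subunit of the deadenylase complex that NANOS2 recruits. Of 25 core pluripotency genes 19 were tested, with 6 higher and 5 lower, where 37.1% of all genes were called in either direction, among them Klf2 (0.53), Chd4 (-0.39), Trim28 (-0.31) and Dppa4 (-0.44).

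Across the 24 iSLAM-seq libraries, Nanos2 and Nanos3 were the pair of the 8 genes most alike (Pearson r = 0.825 of log2(CPM + 0.5)), followed by Lin28b and Tfap2c (r = 0.701). These are descriptions over libraries that share vector, time and normalization. Among 12060 other genes with a mean of at least 5 CPM, the ones most like Nanos3 were Larp7 (r = 0.941), Phldb1 (0.93) and Socs5 (0.921), and the ones most like Nanos2 were Cic (0.908), Dek (0.906) and Gm11488 (0.894). Tex14 (0.876), Tdp1 (0.867) and Nktr (0.857) followed Tfap2c most closely, Fcho1 (0.885), Nup188 (0.849) and Neil3 (0.848) followed Lin28b, and March7 (0.862), B230362B09Rik (0.849) and Dusp5 (0.843) followed Prdm1. The best matches of Lin28a (Prpf4b, 0.698), Utf1 (Spag1, 0.619) and Pou5f1 (Thyn1, 0.679) were weaker.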

How the data were processed

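The deposited counts are raw reads per gene. The submitters' processing notes name STAR 2.5.2b, Subread featureCounts and GRCm38 for RNA-seq, and limma 3.42.2 for iSLAM-seq. Strand settings are not given in the sources used here. The peak score and the distance to the TSS are the authors' deposited values (mm10, Bowtie2 2.2.5 and HOMER, per the submitters' processing notes). From the counts, edgeR 4.0.16 (R 4.3.3) fitted quasi-likelihood models with TMM and filterByExpr, Benjamini-Hochberg over all genes, adjusted p under 0.05. RNA-seq compared 4 with 4 libraries, and iSLAM-seq used 12 group means over 24 libraries. A pseudocount of 0.5 CPM entered the correlations only. DESeq2 1.42.0, other scalings, no filter and left-out libraries were the alternatives. The main edgeR fits were also run on simulated counts with known changes, and the alternatives were not. The genes and lists were chosen with earlier results of these data known. All 9 genes are named; from each pathway list up to 4 called genes with the smallest p are named, and for likeness 3 genes (1 for Lin28a, Utf1 and Pou5f1). CUT&Tag controls were not analysed here.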

Additional observations from a re-analysis of the deposited data

Results flagged for a closer look

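In groups of 4 RNA-seq libraries, a library was singled out where its gap to the nearest other, as a share of the group's range, was above 0.829. This held for Prdm1 in the second library labelled null (2.91 CPM, share 0.874), for Nanos2 in the third wild-type library (0 counts, share 0.885) and the second library labelled null (1 count, share 1.0), and for Prdm14 in the fourth wild-type library (0 counts, share 0.887). For Nanos2 and Prdm14 the distance is that between 0 counts and 1. For continuous, normally distributed values chance marks about 1 group in 20, or 0.9 of the 18 groups examined. That rate does not hold for counts of 0 and 1, so the number of groups marked here cannot be set against it.

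In iSLAM-seq the difference between the vectors changed from its value at 0 h for Prdm1 (edgeR F-test, adjusted p = 0.00699) and Nanos3 (adjusted p = 0.0226).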

How the results depend on the processing

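In RNA-seq, the 5071 genes called became 2980 with DESeq2, 7828 on library totals (7189 higher, 639 lower) and 10934 with scaling to the germ cell list, where Pou5f1 reversed to 0.59 and Lin28b went to -0.15. The 494 genes whose difference changed from 0 h became 821 with DESeq2, 1002 with no filter and 1489 without the 4 libraries of 0.5 h, an alternative chosen after seeing the data. The 1184 genes varying in empty-vector cells became 1918, 2450 and 2174 under the same settings, and the 1948 in Rhox10-ERT2 cells became 4228 without 0.5 h. Leaving out each library in turn gave 1133 to 3854 calls at 0 h (2246 with all), 309 to 4328 for the change from 0 h, 773 to 6036 for time in empty-vector cells and 1351 to 4537 for time in Rhox10-ERT2 cells, the highest of each without the first empty-vector library of 0.5 h. A lone library in a group was taken to vary like the other groups. For the causes of these shifts, the cause was not tested. Keeping peaks at or above the median score left 0 of the 9 genes with a peak. Same-numbered replicates did not deviate together on average (mean r -0.00 in RNA-seq and 0.01 in iSLAM-seq, where single values ran from -0.106 to 0.0917). That does not settle whether the numbers pair libraries. With a replicate block the calls were 5066 in RNA-seq. In iSLAM-seq they were 7687 (averaged), 2314 (0 h), 502 (change), 1206 and 1996 (time), and no call of the 9 genes changed. Depth limits Pou5f1 in iSLAM-seq and Nanos2, Prdm14, Nanos3 and Tfap2c in RNA-seq.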
